A study of Mus musculus with 18 samples.

Results

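The cytosolic ribosomal protein genes are described here in cardiac fibroblasts undergoing direct reprogramming towards a cardiomyocyte-like state. The genes were chosen by name alone. They are the rows of the count tables whose symbol starts with Rpl or Rps and a digit, with Rplp0, Rplp1, Rplp2 and Rpsa. The 16 kinase, binding protein, pseudogene and related-sequence names that also start this way were dropped. This gave 85 of 23420 genes, 52 with large subunit names and 33 with small subunit names, spread over 19 chromosomes.

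The cytosolic ribosome joins a small subunit, which reads the messenger RNA, with a large subunit, which forms the peptide bonds. Each ribosomal protein is usually needed in 1 copy per subunit, and the acidic proteins of the large subunit stalk, which recruit the elongation factors, are an exception. The messenger RNAs of this family typically start with a run of pyrimidines (a terminal oligopyrimidine tract), and their translation is controlled by the growth kinase mTOR, so transcript level and protein output can part. A cell builds subunits in the nucleolus with a separate set of biogenesis factors.

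The cells were primary cardiac fibroblasts from neonatal CD1 mice, transduced with a retrovirus carrying Mef2c, Gata4 and Tbx5 on 1 transcript (MGT). Every group used here received this virus. In the second of 2 sample sets, 12 libraries formed 4 groups of 3: a non-targeting short hairpin RNA (shNT), shMtfr1l, shOpa1, and shMtfr1l with shOpa1 (the double knockdown). In each group the titles give day 7, day 8 and day 9, while the descriptions number the same libraries as biological replicates 1, 2 and 3. The genotype field counts the Opa1 hairpin upwards over those replicates (shOpa1, shOpa2, shOpa3). The first set gave 1 shNT and 1 shMtfr1l reprogramming sample, both at day 7, the latter labelled with a knockdown of 85%. Mtfr1l encodes a protein of the outer mitochondrial membrane, and Opa1 encodes the GTPase behind fusion of the inner one.

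In the second set the 12 libraries held 16205862 to 25317069 gene counts. Mtfr1l averaged 71.9 ± 4.17 CPM (scaled counts per megacount of the library; SD, n = 3) in shNT and 69.6 ± 3.34 in shOpa1, against 16.4 ± 2.88 in shMtfr1l and 27.2 ± 4.15 in the double knockdown. Opa1 averaged 63.1 ± 8.33 CPM in shNT and 72.1 ± 1.35 in shMtfr1l, against 8.96 ± 3.16 in shOpa1 and 18.3 ± 2.34 in the double knockdown. Both targets were thus less reduced in the double knockdown than under their own single hairpin, by 0.73 log2 units for Mtfr1l (adjusted p = 8.08e-05, edgeR's quasi-likelihood test) and 1.03 for Opa1 (adjusted p = 4.88e-04). The 9 cardiac fibroblast markers summed to between 31866 and 37934 CPM over the 12 libraries. These were bulk samples, in which fewer cells of a type and less RNA per cell cannot be told apart.

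Levels within the family were very unequal. The 85 members together held 2483506 counts over the 12 libraries. Of these, 7 members accounted for 50% and 27 for 90%. On a scale corrected for length (RPKM), among the highest in shNT were Rpl41 at 1563 ± 193, Rpl8 at 898 ± 59.4, Rpl32 at 761 ± 75.2 and Rplp1 at 685 ± 58.9 (SD, n = 3). Rpl41 is the smallest ribosomal protein, Rpl8 lies beside the peptide-forming centre, and Rplp1 is an acidic stalk protein. Rpl32 and Rplp1 differed by less than their summed SDs, and Rpl8 and Rpl32 by more.

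The lowest members by RPKM past the filter on low counts were Rpl39l at 0.356 ± 0.505 RPKM, Rpl34 at 1.09 ± 0.576, Rps27 at 1.28 ± 0.405, Rpl21 at 2.48 ± 0.429 and Rps15a at 2.56 ± 0.0711. This order depends on the exon length in the table, which was 5134 bases for Rps15a and 1856 for Rpl21. Rps15a was at 13.1 CPM in shNT. Rplp2, with 441 exon bases, was at 3.87 CPM but at 8.77 RPKM. The filter removed 4 members, and 81 were tested. Rpl3l, a paralog of Rpl3 known from striated muscle, had 31 counts in the 12 libraries together. Rpl10l, a paralog of Rpl10 known from the testis, had 4. Rpl30 had 48, and Rpl26 had 0 in every library.

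The rule by which reads were assigned bears on this order. Reads that matched several places, or lay in exons of several genes, were not counted, and ribosomal protein genes have many processed pseudogenes. In the deposited table's own gene models, 95.8% of the exon bases of Rpl26 also lay in exons of a second gene on the same strand, Gm15772, which itself had 0 counts. The same held for 76.0% of Rpl30 with Gm12191, 67.2% of Rpl34 with Rpl34-ps1 and 60% of Rps27 with Gm9846, and each of these partners had 0 counts too. These 4 pairs were singled out after their values were seen. Of all 85 members, 5 shared exon bases with another gene in the table, the other one being Rpl13a with a single base.

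Sequence shared with genes elsewhere was measured too. For each member, the GENCODE transcript closest to the counted exon length was chosen, from coding ones only for every member but Rps4y2. It was cut into overlapping windows of 100 bases, and the share of windows also found letter for letter in another gene's transcripts was taken. Some chosen transcripts were much longer than the counted exons, such as Rps20 (3706 against 502 bases) and Rpl12 (1242 against 638). The share of 5.91% for Rps20, in the lowest group below, was taken over that longer transcript. The 19 tested members with under 20% of windows shared had a median of 439 RPKM in shNT, against 39.4 for 29 members with 20 to under 50% and 22.9 for 33 members with 50% or more. Rpl32 and Rps3 shared 0% of windows, while Rpl5 shared 91.1% and Rpl10 91.6%. A low level here need not mean little messenger RNA. In comparisons of 1 member between groups the same windows were countable in every library. The calls given below still differed between these classes. In shMtfr1l against shNT 7, 4 and 2 members were called lower, in that order, with median log2 fold changes of -0.25, -0.16 and -0.16. In the double knockdown against shOpa1 6, 1 and 0 were called lower. Of all genes, 4.79% and 2.17% were called lower in these comparisons. The part of level and of shared sequence in this was not tested.

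**Figure D1:**
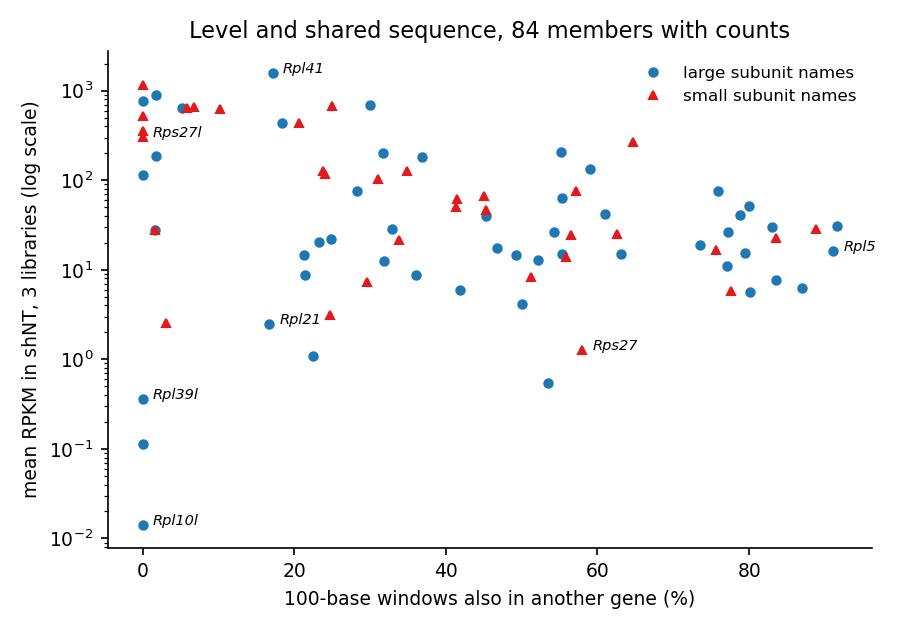
Mean RPKM in the 3 shNT libraries (log scale) of the 84 members with a count, against the percent of each member's 100-base windows that also occur in another gene. Points above 500 RPKM lie at 30% of windows shared or less, and the paralogs Rpl39l and Rpl10l are low with 0% shared.

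The share of all gene counts that fell in the 85 members gives the size of the family in each library. It was 1.14, 0.990 and 0.974% in shNT, 0.854, 0.912 and 0.915% in shMtfr1l, 1.08, 1.08 and 1.102% in shOpa1, and 1.02, 0.999 and 0.936% in the double knockdown. The means were 1.04 ± 0.0934, 0.894 ± 0.0344, 1.09 ± 0.0137 and 0.985 ± 0.0432% (SD, n = 3). Every shMtfr1l library lay below every library of the other 3 groups. The shNT libraries spread widest, because replicate 1 stood apart. That library had the fewest counts of all 12, and 56 of the 81 tested members were highest in it among the 3 shNT libraries, against 22 in replicate 2 and 3 in replicate 3. For the comparisons with shNT, the counts of called genes and the named calls that were lost are also given below without it.

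**Figure D2:**
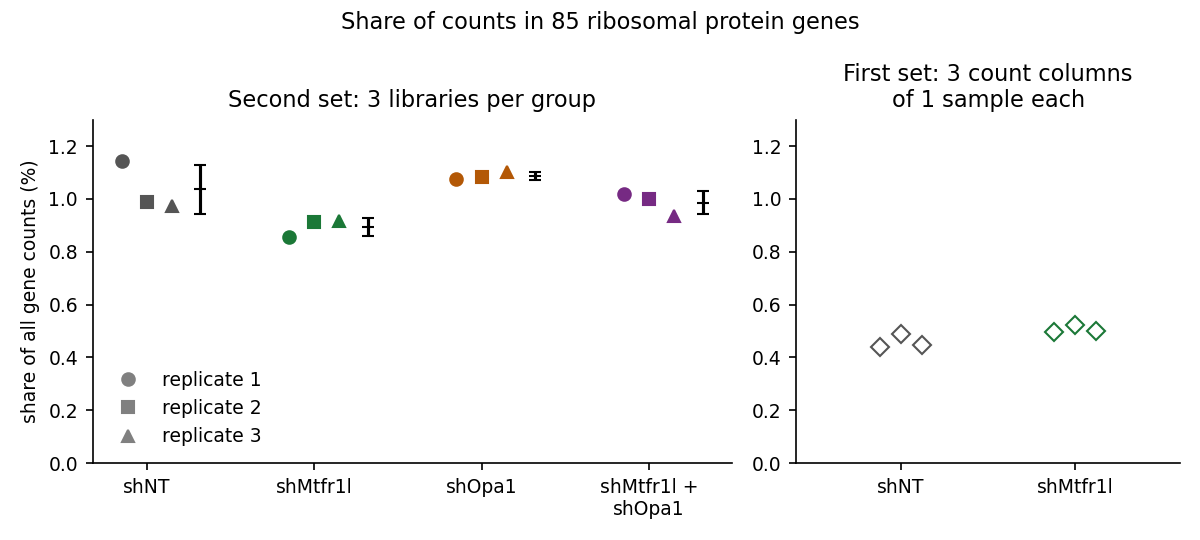
Percent of all gene counts in the 85 members, by library in the second set (bars: mean ± SD of 3) and by count column of the 1 sample per group in the first set. The 3 shMtfr1l libraries of the second set sit between 0.854 and 0.915%, below all others, while the first-set columns of shMtfr1l lie at 0.497 to 0.524% against 0.441 to 0.490% in shNT.

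The comparison of shMtfr1l with shNT asks what lowering Mtfr1l does during reprogramming. Under shMtfr1l 13 of 81 members fell and none rose (edgeR's quasi-likelihood test, adjusted p under 0.05 over 14162 genes). Of all genes tested, 4.79% were called lower and 5% higher. The median change of the members was -0.17 on the log2 scale against 0.0029 over all genes, and 69 members lay below 0. The groups did not overlap for 26 members, which is 32.1% of them, against 26% of all genes. Most called members fell by 1.17 to 1.26-fold. Rpl7l1 fell further, and so did Rps25 where shNT replicate 1 was included.

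Rpl7l1, a paralog of the large subunit protein Rpl7, changed more than any other called member. Its level was 73.3, 73.9 and 72.8 CPM in shNT and 39.5, 46.9 and 43.3 CPM in shMtfr1l. The shNT libraries were almost identical and lay far above the shMtfr1l libraries. The log2 fold change was -0.76 ± 0.077 (SE, adjusted p = 5.31e-07), a 1.70-fold fall. It shared 1.68% of its windows with other genes. Rpl7 itself was at 199 ± 12.4 RPKM in shNT and 184 ± 11.3 in shMtfr1l (log2 fold change -0.11 ± 0.059, adjusted p = 0.272).

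Of the 3 proteins of the large subunit stalk, Rplp0 and Rplp1 fell and Rplp2 did not pass the test. Rplp0, the base of the stalk, was at 632, 561 and 598 CPM in shNT and 484, 517 and 492 CPM in shMtfr1l, without overlap (log2 fold change -0.26 ± 0.048, adjusted p = 8.43e-04). Rplp1 was at 352, 308 and 301 CPM against 249, 246 and 266 CPM, also without overlap (-0.34 ± 0.063, adjusted p = 9.53e-04). Rplp2, the partner of Rplp1, was counted at only 3.40 to 4.35 CPM in shNT and 3.12 to 4.47 in shMtfr1l, and its 95% interval ran from -0.60 to 0.48 log2 units. The difference between Rplp1 and Rplp2 was not tested.

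On the small subunit 8 members fell and on the large subunit 5. Rps15, which reaches towards the decoding centre, was at 360, 313 and 312 CPM in shNT and 257, 275 and 250 CPM in shMtfr1l (-0.33 ± 0.062, adjusted p = 9.52e-04). Rps25, known for its part in initiation at internal entry sites, was at 53.5, 37.6 and 36.3 CPM against 26.2, 30.96 and 32.8 CPM (-0.50 ± 0.12, adjusted p = 0.00861). In both the shNT and shMtfr1l libraries did not overlap, and in both shNT replicate 1 was the highest library. The Rps25 call rested on that library and on shMtfr1l replicate 1. Its log2 fold change was -0.30 without shNT replicate 1 (adjusted p = 0.0851), ran from -0.67 to -0.21 over the fits with a replicate left out, and its adjusted p reached 0.351. Rpl13a, known for a role outside the ribosome in silencing inflammatory transcripts, fell by 0.34 on the log2 scale, and Rps20, Rps9, Rps3, Rpl41, Rps2 and Rps4x fell by 0.23 to 0.29. Rps3 lies at the messenger RNA entry and also acts in DNA repair.

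Members outside the called set were mostly below 0 too. Rpsa, the laminin receptor precursor, had a log2 fold change of -0.17 ± 0.057 (adjusted p = 0.0689). Rps6, the classical target of S6 kinase, had -0.17 ± 0.13 (adjusted p = 0.498). Rpl5 and Rpl11, which bind Mdm2 when ribosome assembly is disturbed, had -0.011 ± 0.14 (adjusted p = 0.979) and -0.34 ± 0.16 (adjusted p = 0.22). These last values have wide errors, with Rpl5 at 33.1 ± 6.39 CPM and Rpl11 at 15.5 ± 2.96 CPM in shNT (SD, n = 3). At 100 CPM or more in shNT there were 24 members, all 24 below 0 and 11 of them called. Of the 57 members under 100 CPM, 2 were called. Their median SE was 0.156, against 0.061 for the higher ones. The share of all genes at 100 CPM or more that was called is not given here. The 4.79% of all genes called lower covers genes of every level.

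**Figure D3:**
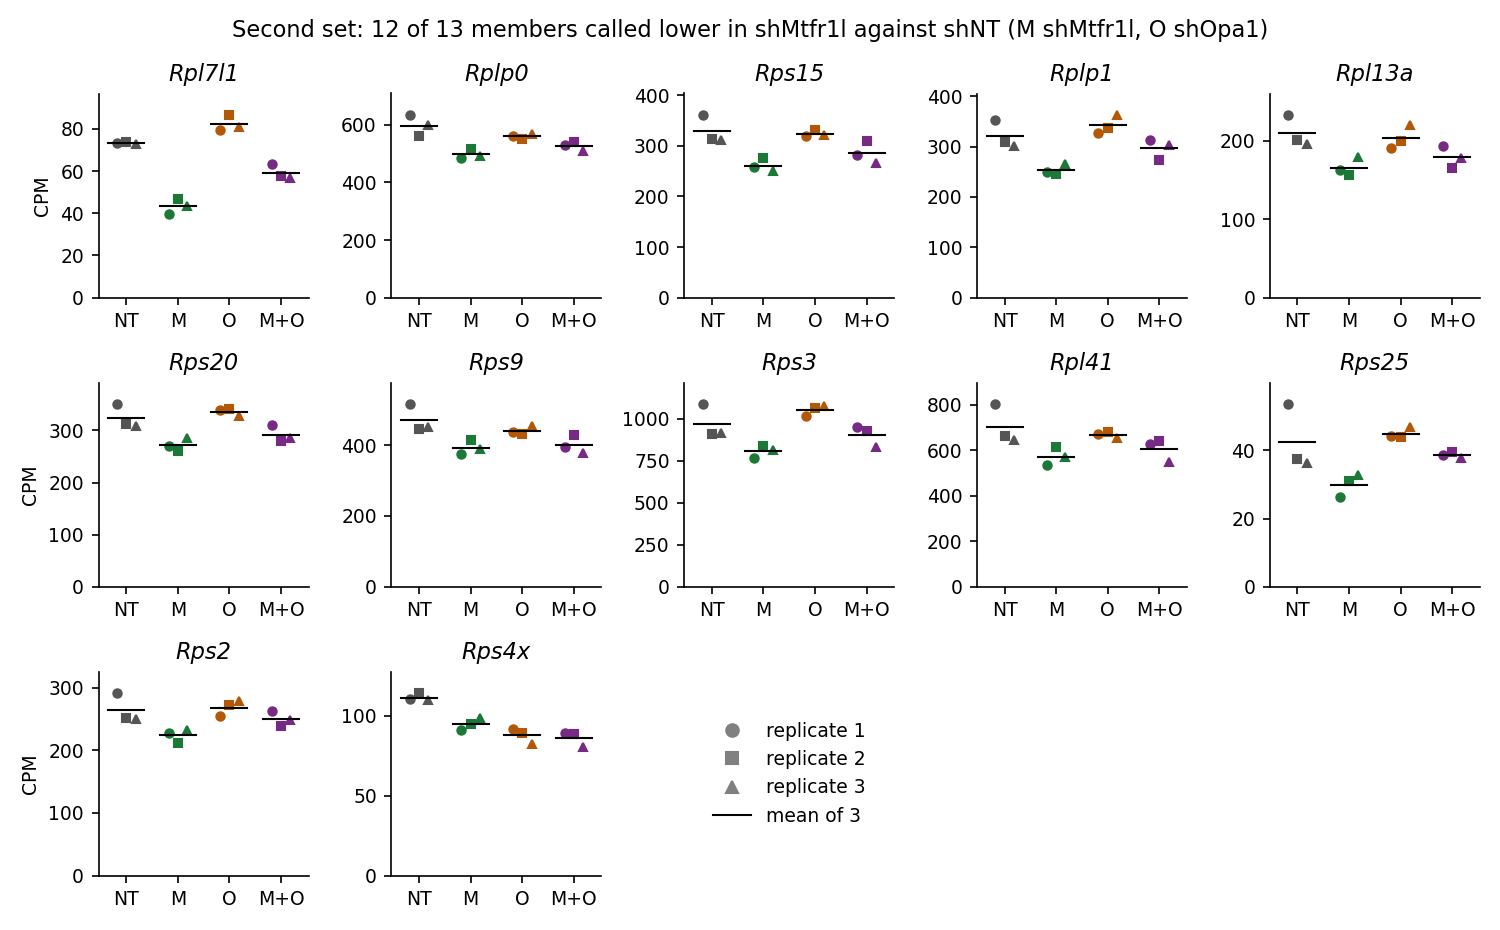
CPM of 12 of the 13 members called lower in shMtfr1l against shNT, by library in all 4 groups of the second set (symbols: replicates; line: mean of 3; each axis starts at 0). The shMtfr1l libraries lie below the shNT libraries in each panel, and Rpl7l1 shows the widest gap.

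The size of this result depended on replicate 1, which the titles give as day 7. Replicate and titled day cannot be told apart. Without shNT replicate 1, 10 members were called lower and the median was -0.11. The calls of Rps25, Rpl41 (-0.19, adjusted p = 0.0622) and Rps2 (-0.16, adjusted p = 0.105) were the ones lost. Without replicate 1 of all 4 groups, 2 members were called lower, Rpl7l1 and Rplp1, the median was -0.086 and 58 of 81 were below 0, while 4.47% of all genes were called. With replicate 2 or replicate 3 left out of all groups, 10 and 16 were called. For these fits, and the one without shNT replicate 1 alone, the share of all genes called is not given here. In no alternative was a member called higher.

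The double knockdown against shOpa1 gives the addition of shMtfr1l a second time, in libraries that share none with the comparison above. There 7 of 81 members fell and none rose, where 2.17% of all genes were called lower and 2.05% higher. The groups did not overlap for 26 members and for 21.7% of all genes. The median was -0.14 and 71 members were below 0. Both comparisons gave a value below 0 for 60 of 81 members (74.1%), and for 27.7% of all genes tested. Called lower in both were 4 members, Rpl7l1, Rps3 and Rps20 among them, which are 30.8% of the 13 and 57.1% of the 7. Over all genes the overlap was 20.3% of 679 genes and 45.0% of 307. Without double knockdown replicate 3 only Rpl7l1 was called, and the median was -0.11. Without double knockdown replicate 2 or shOpa1 replicate 3 there were 3 calls, and without shOpa1 replicate 1 or 2 there were 2.

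Rpl7l1 was again the clearest. It stood at 79.3, 86.4 and 80.8 CPM in shOpa1 and at 63.5, 57.9 and 56.6 CPM in the double knockdown (-0.47 ± 0.075, adjusted p = 5.55e-04). The groups lay well apart. Rpl4, Rps3, Rps20 and Rps14 fell by 0.16 to 0.22 on the log2 scale, with adjusted p from 0.0246 to 0.0451. Each of these 4 calls was lost in 9 or more of 23 alternatives, with adjusted p up to 0.408.

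**Figure D4:**
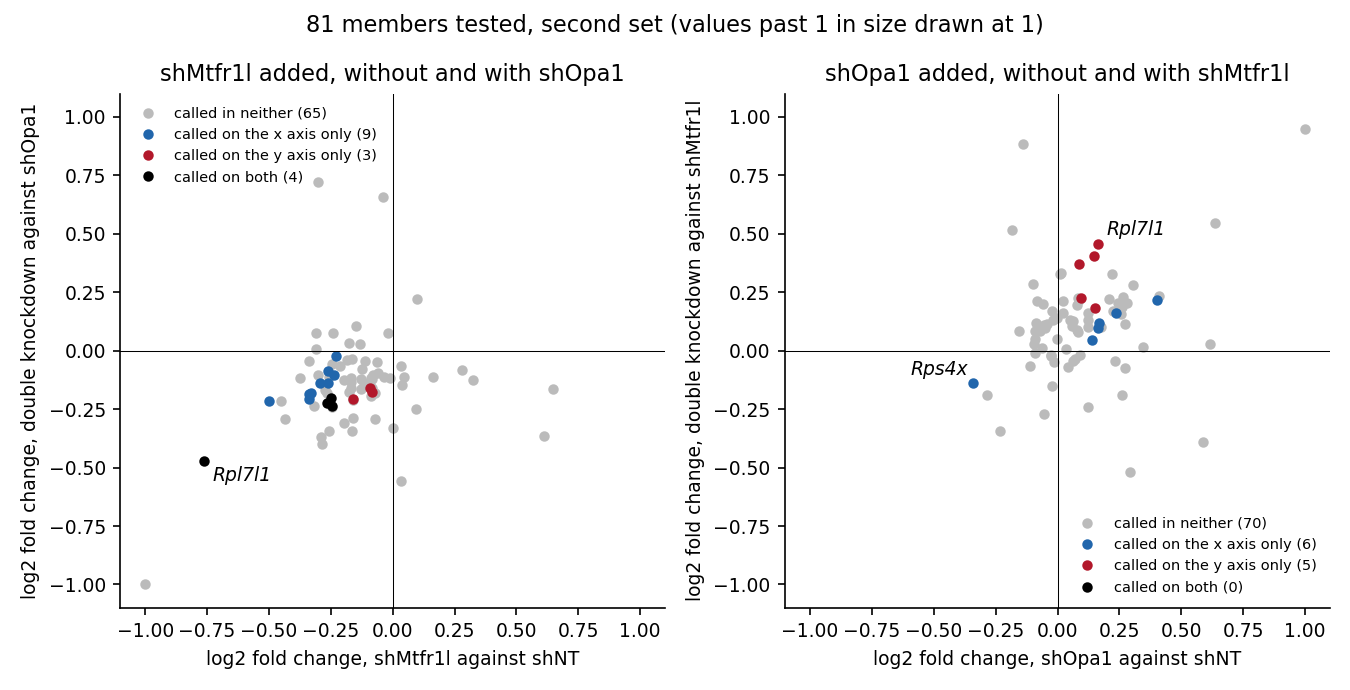
Log2 fold changes of the 81 tested members when shMtfr1l is added without (x) and with (y) shOpa1, and when shOpa1 is added without (x) and with (y) shMtfr1l. On the left 60 members lie below 0 on both axes with Rpl7l1 farthest out among the called ones, and on the right no member is called on both axes.

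In the fit of all 12 libraries few members were called when Opa1 was lowered, although many genes were. In shOpa1 against shNT 5 of 81 members rose and 1 fell, where 14% of all genes were called higher and 14.8% lower. The groups did not overlap for 15 members, or 18.5%, against 40.5% of all genes. The median was 0.078. Rpl4, which lines the peptide exit tunnel, was at 958, 893 and 908 CPM in shNT and 1018, 1039 and 1034 CPM in shOpa1 (0.16 ± 0.040, adjusted p = 0.00326). Rpl14 was at 178, 170.3 and 165 CPM against 203, 199 and 202 CPM (0.24 ± 0.059, adjusted p = 0.00373). The shOpa1 libraries of both genes lay above all shNT libraries. Rpl6 rose by 0.40 and Rps14 by 0.17 on the log2 scale. The count depended on 1 control library, and the shares of all genes above belong to the fit that includes it. Without shNT replicate 1 there were 15 members called higher and 1 lower, although the call of Rpl6 was lost (adjusted p = 0.0558). More members were thus called in that fit, and the share of all genes called in it is not given here. Without shOpa1 replicate 1 or replicate 2 the count was 2 higher and 1 lower.

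Rps4x, the X-linked small subunit protein, went the other way. It was at 110.1, 114 and 109.6 CPM in shNT and 91.4, 89.3 and 82.2 CPM in shOpa1, without overlap (-0.34 ± 0.065, adjusted p = 2.56e-04). In the double knockdown it was at 89.2, 88.6 and 80.5 CPM (-0.37 ± 0.064 against shNT, adjusted p = 2.03e-04), and in shMtfr1l at 91.2, 94.9 and 98.5 CPM. All 9 knockdown libraries thus lay below all 3 shNT libraries. Both Opa1 calls held in each of 23 alternatives, with adjusted p no higher than 0.0109 and 0.0085. The call in shMtfr1l was lost in 6 of 23. The related row Rps4y2, which RefSeq lists as a transcribed pseudogene, was at 27.7 ± 3.82 RPKM in shNT and 27.1 ± 2.91 in shOpa1.

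The second addition of shOpa1, in the double knockdown against shMtfr1l, called 5 of 81 members higher and none lower, where 10.2% of all genes were called higher and 11.3% lower. The groups did not overlap for 19 members (23.5%) and for 37% of all genes. The median was 0.11 and 61 members were above 0. None of these 5 was among the 5 that rose in shOpa1 against shNT (0% of either list), whereas over all genes 833 rose in both, which are 41.9% of 1986 and 57.8% of 1440. The 2 comparisons had the same sign for 64.2% of members and 72.1% of all genes. Rpl7l1 rose by 0.46 ± 0.077 on the log2 scale (adjusted p = 1.34e-04), from 39.5, 46.9 and 43.3 CPM to 63.5, 57.9 and 56.6 CPM. Mtfr1l itself was higher in the double knockdown than in shMtfr1l, as given above, and its part in this rise was not tested. Rplp1, Rpsa, Rps25 and Rps27a rose by 0.18 to 0.40. Without double knockdown replicate 1 only Rpl7l1 was called and the median was 0.059. Without shMtfr1l replicate 1 there were 2 called higher and 1 lower, and without shNT replicate 1, which enters only the shared spread and scaling, 9 higher.

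Against shNT the double knockdown had 11 members lower and none higher, where 11.6% of all genes were called lower and 11.8% higher. The groups did not overlap for 15 members and for 38.9% of all genes. The median was -0.045, and it turned to 0.023 with 4 members called without shNT replicate 1, namely Rps4x, Rpl7l1, Rps9 and Rplp0. Without double knockdown replicate 3 there were 4 calls as well. Rpl7l1 fell by 0.31 on the log2 scale (adjusted p = 0.00453), less than in shMtfr1l alone. Rps9, Rplp0, Rps15, Rpl39, Rpl27a, Rpl13a, Rpl22 and Rpl41 fell by 0.18 to 0.34. Of these Rpl39, which lines the exit tunnel, was at 87.2, 68.4 and 63.0 CPM in shNT and 62.1, 62.4 and 49.4 CPM in the double knockdown.

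No member passed the test of the interaction, which asks whether the 2 knockdowns together differ from the sum of each (0 of 81, against 2.86% of all genes, edgeR's quasi-likelihood test). At an unadjusted p under 0.05 there were 3 members above and 2 below 0. DESeq2 called 0. For Rpl7l1 the interaction was 0.29 with a 95% interval from 0.069 to 0.52 (adjusted p = 0.165), which does not show that the effects add.

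Several members have a second copy, and levels per length were compared within each pair. In shNT Rpl36al, the autosomal retrocopy of Rpl36a, was at 135 ± 18.6 RPKM and Rpl36a at 7.62 ± 2.56. Rps27l, a target of p53, was at 306 ± 30.8 and Rps27 at 1.28 ± 0.405. In the deposited gene models 60% of the Rps27 exon bases also lay in Gm9846, and none of those of Rpl36a or Rpl36al lay in another gene. The part of counting in these orders was not tested. For the pairs in which the first copy led, Rpl22 was at 116 ± 7.45 and Rpl22l1 at 39.4 ± 10.96, and Rpl39 at 185 ± 32.2 and Rpl39l at 0.356 ± 0.505. Rps27l was at 264 ± 12.9 RPKM in shMtfr1l (log2 fold change -0.21 ± 0.076, adjusted p = 0.0853).

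Members also differed in how steady they were. The SD of log2 CPM over the 12 libraries was among the smallest for Rpl22 (0.10) and Rpl4 (0.10). Among the 81 tested members it was widest for Rpl39l (1.28), Rps27 (0.58) and Rpl34 (0.55), each under 2 RPKM in shNT. Rpl4 was nevertheless called in 2 comparisons.

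Other genes of the same pathway were read from the same fit. Of 52 tested ribosome biogenesis factors, 25 rose and none fell in shOpa1 against shNT, with a median of 0.26. There 14% of all genes were called higher and 14.8% lower. Nolc1, a nucleolar chaperone of small nucleolar ribonucleoproteins, rose from 55.2 ± 3.15 to 91.7 ± 2.33 CPM (0.73 ± 0.071, adjusted p = 4.37e-08). Ddx21, a nucleolar helicase, rose from 98.3 ± 0.965 to 126 ± 2.43 CPM, and Utp20, of the small subunit processome, and Sdad1, needed for large subunit maturation, rose by 0.53 and 0.57 on the log2 scale. In the double knockdown against shNT 26 rose and none fell, and against shMtfr1l 27 rose and none fell. Of all genes, 11.8% were called higher and 11.6% lower in the former, and 10.2% and 11.3% in the latter. In shMtfr1l against shNT, where the shares were 5% and 4.79%, none rose and 1 fell, the ribosomal RNA transcription factor Ubtf (-0.27 ± 0.066, adjusted p = 0.00976). Without shNT replicate 1 the Ubtf call was lost (adjusted p = 0.0712), and 24 factors rose and none fell in shOpa1 against shNT, with 26 and none in the double knockdown. A difference between this list and the ribosomal proteins was not tested.

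Translation factors were called in both directions. Of 41 tested, none was called in shMtfr1l against shNT, while 9 rose and 3 fell in shOpa1, and the counts were the same without shNT replicate 1. Of all genes, 5% were called higher and 4.79% lower in shMtfr1l, and 14% and 14.8% in shOpa1 against shNT. There Eif4g2, a scaffold for cap-independent initiation, fell from 1355 ± 53.5 to 1089 ± 6.47 CPM (-0.31 ± 0.042), whereas the termination factor Etf1 rose from 209 ± 0.891 to 258 ± 10.4 CPM. The double knockdown against shOpa1 had 1 higher and 4 lower, where 2.05% and 2.17% of all genes were. Among the lower ones was the elongation factor Eef1a1 (-0.14 ± 0.031, adjusted p = 0.00897). Fau, which encodes a ribosomal protein fused to a relative of ubiquitin and falls outside the name rule, was called in no comparison. Of 7 host genes of small nucleolar RNAs and the like, 1 rose in shOpa1 (Snhg3, not called without shNT replicate 1, adjusted p = 0.0878) and 1 in the double knockdown against shMtfr1l (Snhg1). Their median was -0.24 in shMtfr1l and 0.11 in shOpa1 against shNT, where the ribosomal protein medians were -0.17 and 0.078. In the double knockdown it was -0.23 against shOpa1 and 0.26 against shMtfr1l, beside -0.14 and 0.11. Against shNT it was 0.18 there, beside -0.045. These differences were not tested.

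Of 23 genes that act upstream of ribosomal protein synthesis, 11 rose and 2 fell in shOpa1 against shNT. There 14% of all genes were called higher and 14.8% lower. Eif4ebp2, an mTOR-controlled repressor of cap-dependent translation, rose from 50.4 ± 4.39 to 91.2 ± 3.00 CPM (adjusted p = 1.75e-08). Larp1, which binds terminal oligopyrimidine messages, rose from 159 ± 2.47 to 221 ± 2.78 CPM (adjusted p = 8.02e-07). Myc rose from 18.4 ± 3.15 to 33.4 ± 4.97 CPM, and the S6 kinase gene Rps6kb1 fell from 51.9 ± 6.60 to 28.7 ± 2.99 CPM. In shMtfr1l 2 rose (Larp1 and Eif4ebp1) and 1 fell (Max), where 5% of all genes were called higher and 4.79% lower. Without shNT replicate 1, 6 rose and 2 fell in shOpa1, the named ones among them, and the Larp1 call in shMtfr1l was lost (adjusted p = 0.0823). Eif4ebp2 was the only one of the 23 called for the interaction (-0.52 ± 0.11, adjusted p = 0.0091).

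Markers of other cell states moved in the same comparisons. Of all genes, 5% were called higher and 4.79% lower in shMtfr1l against shNT, and 14% and 14.8% in shOpa1 against shNT. These shares were 11.8% and 11.6% in the double knockdown against shNT, and 2.05% and 2.17% against shOpa1. Of 8 cardiomyocyte markers, 6 rose and 1 fell in shMtfr1l against shNT, and their summed level was 3041 to 3262 CPM against 2339 to 2395 CPM. In shOpa1 none rose and 6 fell, with a sum of 1426 to 1574.5 CPM. In the double knockdown the sum was 1854 to 1908 CPM, none of the 8 was at 0 in any group, and against shOpa1 4 rose and none fell. Of 9 fibroblast markers 1 rose and 4 fell in shMtfr1l. Without shNT replicate 1, 5 cardiomyocyte markers rose and none fell in that comparison, and of the fibroblast markers none rose and 5 fell. Of 5 epicardial and mesothelial markers none rose and 4 fell there, with a sum of 170.2 to 183 CPM against 274 to 293 in shNT. Of 4 smooth muscle markers none rose and 3 fell, or 2 without shNT replicate 1, with 3510 to 3751 CPM against 4055 to 4431. None of 4 proliferation markers was called, while their sum was 299.5 to 339.7 CPM against 285 to 290. Of 5 macrophage and leukocyte markers 4 rose in the double knockdown against shNT, where their sum was 515 to 667 CPM against 252 to 368. The part of these shifts in the ribosomal protein values was not tested.

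The promoters of the called members are shown because the members fell together and the family is known for its type of start site. RefSeq windows of GRCm38.p6 (250 bases before to 50 after the start) matched 64 of 85 members. Each member entered with its closest window, whereas the comparison counted every window of every gene. For 54 of the 64 the window's start lay within 5 bases of the counted gene's start. A run of at least 8 letters C or T within 20 bases before and 30 after the start was found in 31 of these 64 (48.4%) and in 19.0% of all 32851 windows. The ETS core CCGGAAG, on either strand, was in 40.6% against 8.86%, the Sp1 box GGGCGG in 60.9% against 35.7%, the YY1 core AAGATGGC in 7.81% against 2.75% and the TATA letters TATAAA in 9.38% against 13.6%. Below are 5 stretches from 60 bases before to 20 after the start, on the gene's strand, with runs of 8 or more pyrimidines and matches to those motifs in capitals.
Rpl7l1 (chr17:46782637-46782716, minus strand): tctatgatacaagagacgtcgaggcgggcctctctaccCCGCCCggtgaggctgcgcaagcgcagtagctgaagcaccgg
Rpl13a (chr7:45128726-45128805, minus strand): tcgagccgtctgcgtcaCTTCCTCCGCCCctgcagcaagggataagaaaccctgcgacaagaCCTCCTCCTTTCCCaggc
Rps9 (chr7:3703981-3704060, plus strand): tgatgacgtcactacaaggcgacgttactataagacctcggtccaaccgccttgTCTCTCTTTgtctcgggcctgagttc
Rps25 (chr9:44407654-44407733, plus strand): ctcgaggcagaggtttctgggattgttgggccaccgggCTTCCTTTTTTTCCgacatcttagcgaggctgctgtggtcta
Rplp0 (chr5:115559407-115559486, plus strand): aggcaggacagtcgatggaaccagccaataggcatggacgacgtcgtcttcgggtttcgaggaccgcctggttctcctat
Among called members with a window at the counted start, only Rpl13a, Rps9 and Rps25 show the pyrimidine run near it. Rpl7l1, the called member that fell most, has a longest run of 3 there and Rplp0 of 7. Rps15, Rps3, Rpl41 and Rps2, called too but not shown, have longest runs of 7, 5, 3 and 6. The median change in shMtfr1l against shNT was -0.17 for members with such a run and -0.17 for those without. Rps4x and Rpl22 were read as having no run, from windows whose starts lay 1020 and 152 bases from the counted ones.

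The first set lists 1 sample for each of shNT and shMtfr1l, given as 3 count columns each, so there is no test. Whether these columns are separate libraries is not stated. Mtfr1l was at 70.2, 85.7 and 76.6 CPM of all gene counts in the shNT columns and at 7.72, 10.8 and 8.15 CPM in the shMtfr1l columns. Of 82 members kept, 55 were higher and 27 lower in shMtfr1l, with a median log2 difference of 0.087 against 0.00020 over all genes. Without the third shNT column the median was 0.045, with 48 higher and 34 lower, and by library size alone it was 0.14, with 61 higher and 21 lower, against 0.055 over all genes. Past 1.25-fold, 8 members were higher and 3 lower, or 9.76% and 3.66%, where 14.5% and 20.1% of all genes were. The direction of the family median was thus opposite to the second set. The first set is titled day 7 only, whereas each second-set group spans titles of day 7, day 8 and day 9. Of the 81 members in both, 27 had the same sign. The 2 sets were scaled separately, and only differences are set side by side.

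Rpl7l1 was lower in both sets. Its summed level in the first set was 53.0 CPM in shNT and 44.4 CPM in shMtfr1l, a log2 difference of -0.26, and the columns did not overlap (51.1 to 54.3 against 43.1 to 46.4 CPM). Rps25 had -0.21 with columns that overlapped. Rps27l had -0.47, with the shMtfr1l columns at 61.5 to 66.9 CPM, all below the shNT columns, which reached 94.2 CPM. Rplp0 was higher in the first set, at 225 to 246 CPM in shNT and 262 to 280.5 CPM in shMtfr1l (0.21), and lower in the second. Of the 13 members called lower in the second set, 7 were lower in the first.

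**Figure D5:**
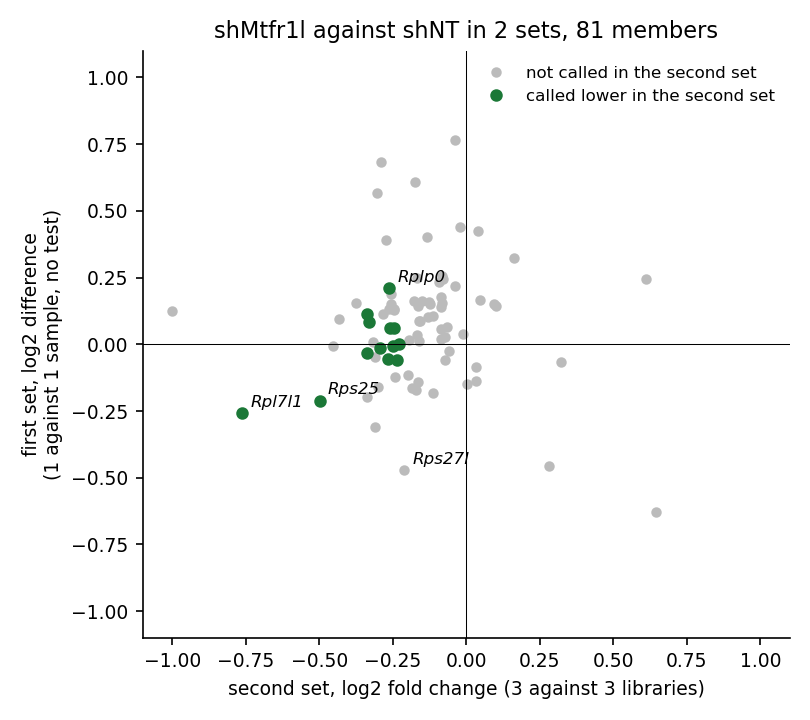
Log2 difference of shMtfr1l against shNT for 81 members in the second set (x, 3 against 3 libraries) and in the first (y, 1 against 1 sample). Rpl7l1 and Rps25 are low on both axes, while most members lie left of 0 on x and above 0 on y.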

How the data were processed

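RNA from primary reprogrammed cardiac fibroblasts was sequenced in bulk. The authors deposited unnormalized counts for each gene, made with featureCounts 2.0.6 on stranded reads and UCSC mm10 gene models, per the file headers, with each mate counted alone. The submitters' processing notes name FastQC and DESeq2. The sources used here do not name the aligner. The members and gene lists were chosen with earlier results of these data known. The 12 count columns that could not be tied to a sample, and with them 4 fibroblast samples, were not used here.

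In the second set, counts were scaled with TMM, filtered with filterByExpr (14162 genes left) and tested with edgeR 4.0.16 (quasi-likelihood, 1 coefficient per group, 8 residual degrees of freedom, R 4.3.3), with Benjamini-Hochberg adjustment over all genes tested and calls under 0.05. RPKM divides TMM-scaled CPM by the table's exon length. In the first set, 3 columns per sample were summed. Libraries of 1 group, and columns of 1 sample, differed by more than counting noise. Chi-square per gene was 5.0 to 9.3 between libraries of 1 group and 4.0 to 6.6 between columns of 1 sample. Named were the called members with the smallest adjusted p, the stalk proteins, Rpsa, Rpl5, Rpl11, Rps6, second copies, the 5 highest and lowest by RPKM, the 3 most and least variable, and up to 4 called genes per list. Values of some genes that this rule would name are not reported here. The fit was tested on simulated data. DESeq2 1.42.0, other scalings, no filter, a replicate block, 2-group fits and left-out libraries were tried. Leaving out a replicate of every group, list counts without shNT replicate 1 and a robust spread estimate were added after the data were seen.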

Additional observations from a re-analysis of the deposited data

Results flagged for a closer look

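For 4 members named here the shMtfr1l and shNT values parted without overlap in both sets but in opposite directions. They were lower in the second set and higher in the first, and this difference was not tested. The first-set values are count columns of the same sample in each group, so their lack of overlap is not a spread between samples. In the second set the groups did not overlap for 26% of all genes. The share of all genes that parted in the first set, or in both sets, is not given here. The log2 differences in the first set were 0.15 for Rpl10a, 0.23 for Rpl4, 0.16 for Rpl8 and 0.21 for Rplp0. In the second set the same members had -0.26, -0.092, -0.13 and -0.26, of which only that of Rplp0 was called.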

How the results depend on the processing

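The direction of every call in the 5 comparisons held in all 23 alternatives, while 2 of 13 calls in shMtfr1l against shNT, 2 of 6 in shOpa1, 1 of 11, 1 of 5 and 1 of 7 in the double knockdown against shNT, shMtfr1l and shOpa1 passed in each. Leaving out each library in turn gave 10 to 15 calls for shMtfr1l, 3 to 16 for shOpa1, 4 to 11, 1 to 9 and 1 to 8 for the double knockdown in that order, and 0 for the interaction. Leaving out replicate 1, 2 or 3 of every group gave 2, 10 and 16 calls for shMtfr1l, 11, 3 and 3 for shOpa1, and for the double knockdown 2, 9 and 4, then 1, 2 and 7, then 5, 1 and 1. With no filter on low counts, calls were 12 for shOpa1, 11 and 12 for the double knockdown against shMtfr1l and shOpa1, and 1 for the interaction. By library size alone, the double knockdown had 6, 12 and 2 calls against shNT, shMtfr1l and shOpa1. Against shMtfr1l, DESeq2 called 10 members and the fit of the compared groups alone 8. Causes were not tested, and the share of all genes called in each fit is not given beside these counts. The replicate numbers did not pair the libraries (mean correlation -0.016 for shared numbers and 0.0080 for others, with 4 of 12 libraries closest to their own number). With the replicate block, 4 members were called in the double knockdown against shOpa1, and all other counts stayed within 1.5 times. Without the 10 other genes with the most counts, member shares were 1.14, 0.986, 1.20 and 1.09% in shNT, shMtfr1l, shOpa1 and the double knockdown, and 0.5003% and 0.547% in the first set. Among uncalled members in shMtfr1l against shNT, the sign turned in some fits. With 1 library left out, log2 values ran from -0.11 to 0.11 for Rpl10, -0.32 to 0.057 for Rpl22l1, -1.76 to 1.27 for Rpl39l, -0.16 to 0.11 for Rpl5, -0.21 to 0.053 for Rplp2 and -0.76 to 0.37 for Rps27. Without replicate 1 of every group they were 0.049 for Rplp2, 0.092 for Rpl22l1, 0.14 for Rpl36a and 0.23 for Rps27. Without replicate 2 of every group they were 0.064 for Rplp2, 0.17 for Rpl5 and 0.19 for Rpl10, and without replicate 3 they were -0.022 for Rpl36al and 0.13 for Rps27. Members under 100 CPM had a median SE of 0.156, against 0.061 above, and the part of depth in this was not tested.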
